A study of Homo sapiens with 12 samples.

Results

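The 86 genes described here are the nuclear-encoded oxidative phosphorylation genes of HEK293T cells that overexpressed NRF1, NRF2 or NRF3. They are all rows, of 38019 in the deposited gene table, whose symbol starts with NDUFA, NDUFB, NDUFC, NDUFS or NDUFV and a number, with UQCR, with COX4 to COX8 and a letter from A to C, or with ATP5 and a letter from A to L, or is SDHA, SDHB, SDHC or SDHD. The rule uses symbols alone, but it was chosen with earlier results of these data known. Of these, 42 belong to complex I, 4 to complex II, 9 to complex III, 15 to complex IV and 16 to complex V by symbol, and 81 are subunit or paralog genes. The remaining rows are, by symbol, 3 antisense RNAs (NDUFA6-AS1, NDUFB2-AS1 and NDUFV2-AS1) and 2 read-through loci (NDUFC2-KCTD14 and ATP5J2-PTCD1), which carry no subunit of their own.

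Oxidative phosphorylation couples electron transport to ATP synthesis in the inner mitochondrial membrane. Complex I takes electrons from NADH and complex II takes them from succinate, complex III passes them to cytochrome c, complex IV passes them to oxygen, and complex V uses the resulting proton gradient to make ATP. Complexes I, III, IV and V combine subunits from nuclear genes with subunits from the mitochondrial genome, whereas all subunits of complex II are nuclear. Nuclear genes for these subunits are known to be controlled by nuclear respiratory factor 1, GABP and the PGC-1 coactivators. The NRF1 transgene of this study is a different protein. It is the cap'n'collar factor encoded by NFE2L1, a relative of NFE2L2 (NRF2) and NFE2L3 (NRF3), and these factors bind the antioxidant response element with small MAF partners.

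HEK293T is a transformed human embryonic kidney line. Cells were transiently transfected with FuGENE and lysed after 24 h, and empty vector, FLAG-NRF1, FLAG-NRF2 and FLAG-NRF3 have 3 libraries each from independent experiments. The NRF1 and NRF3 constructs lacked the N-terminal segment that anchors the proteins in the endoplasmic reticulum, the NRF2 construct carried a point mutation meant to weaken KEAP1 binding, and the control received the same type of plasmid with no transgene. Total counts were 13452539 to 14014340 per library, so depth was close to even. NFE2L2 was at 91.7 CPM (counts scaled to a fixed library total) with empty vector and 10363 with NRF2 (means), whereas NFE2L1 and NFE2L3 counts do not report on their codon-optimised transgenes, and the shared target HMOX1 was higher with all 3 (log2 fold change 3.17 with NRF1, 4.49 with NRF2 and 2.47 with NRF3, edgeR adjusted p of at most 8.08e-10). All 8 genes listed as expressed in HEK293T were detected in every library. Of the genes listed for other tissues, PRM1, PRM2, TNP1 and CDH5 had no count and MYH7, ALB and DCN at most 1. PECAM1, COL1A2, APOA1, CKM and ACTC1 had at most 7. Others were present in every library: the fibroblast gene COL1A1 had 109 to 220 counts, and the blood genes HBA1 7 to 48, CD74 1 to 29 and PTPRC 1 to 12. Libraries within a group differed beyond counting error in all 12 pairs, and NRF3 replicates 2 and 3 stood farthest apart (chi-square per degree of freedom 29.5, against 2.19 to 13.1 in the other pairs). Counts of calls and the medians of complexes and motif groups that rest on NRF3 are therefore given with and without these libraries.

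Promoter sequences were taken from RefSeq (GRCh38.p14), which gave 80 promoters for 66 of the 81 subunit or paralog genes, each from 250 bases before to 50 after a transcription start. They are shown because the question is whether subunit genes respond to factors of the antioxidant response element. The palindromic motif of nuclear respiratory factor 1, spelled by the capitals of the first 3 stretches, was found in 4 of the 66 genes (6.06%, against 1.52% of 27305 genes with a promoter), CCGGAAG, bound by GABP and other ETS factors, in 19 (28.8%, against 12.2%), and the antioxidant response element core TGACNNNGC in 12 (18.2%, against 16.1%). Both strands were searched, and no match of a motif overlapped a match of another. The 27305 genes were not limited to protein-coding or expressed genes, as the members are, so the shares do not compare like sets. The following stretches hold the nuclear respiratory factor 1 motif in capitals, and lie at chr11:112086743-112086792 (plus strand), chr3:120596157-120596206 (plus strand) and chr10:7788135-7788176 (plus strand) of GRCh38.p14.
SDHD: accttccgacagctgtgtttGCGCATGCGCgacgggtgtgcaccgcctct
NDUFB4: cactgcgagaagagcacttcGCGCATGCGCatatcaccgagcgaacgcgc
ATP5C1: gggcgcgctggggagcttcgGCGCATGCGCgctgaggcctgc
The next stretches hold the antioxidant response element core in capitals, on the gene's own strand for NDUFS1, NDUFA9 and ATP5I and on the opposite strand for NDUFS6, and lie at chr2:206159210-206159256 (minus strand), chr12:4649047-4649095 (plus strand), chr4:674331-674379 (minus strand) and chr5:1801372-1801406 (plus strand).
NDUFS1: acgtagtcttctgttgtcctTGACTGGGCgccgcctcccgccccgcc
NDUFA9: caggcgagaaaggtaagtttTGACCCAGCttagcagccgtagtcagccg
ATP5I: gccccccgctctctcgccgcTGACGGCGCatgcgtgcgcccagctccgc
NDUFS6: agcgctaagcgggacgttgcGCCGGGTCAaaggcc
All are read 5′ to 3′ on the gene's strand and end before the transcription start. These are matches of letters, and binding was not measured.

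Of the 86 members, 79 passed the filter on low counts and were tested. Together they took 1.17% to 1.58% of the scaled counts of a library. The level of a gene per length of its coding sequence was highest for ATP5B, the catalytic beta subunit of ATP synthase, at 1005 CPM per kb with empty vector. ATP5L, the membrane subunit g, stood at 967 CPM per kb and COX7B, a small subunit of cytochrome c oxidase, at 826. Within complex I the level per kb ran from 66.7 for NDUFS1, the largest iron-sulfur subunit, to 649.8 for NDUFS5, with a median of 250.2 over 37 genes. The medians were 297 CPM per kb over the 4 genes of complex II, 364 over the 9 of complex III, 498 over the 10 tested of complex IV and 458 over the 15 of complex V. Coding length came from GENCODE v29 and not from the annotation behind the counts, so untranslated parts did not enter the scale. Their reads may still be counted, which would raise the level per kb most for genes with a short coding sequence. Ranks between genes and complexes of unlike coding length are therefore rough.

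**Figure D1:**
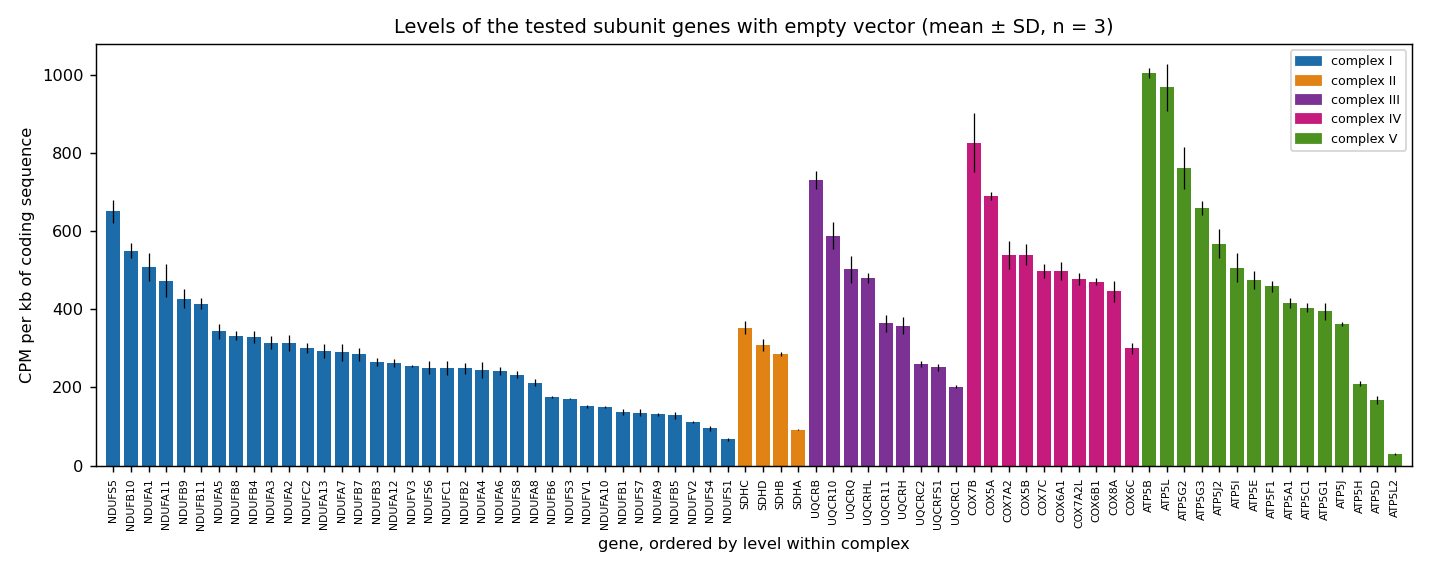
Mean CPM per kb of coding sequence with empty vector for 74 tested subunit genes with a coding length, in bars by complex, with the SD of 3 libraries as lines. ATP5B of complex V is the highest at 1005 and ATP5L2, a complex V paralog, the lowest at 29.5.

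The tissue isoforms separated by presence. COX6A2 and COX7A1, the isoforms of heart and skeletal muscle, had 0 counts in every library and at most 1 count, respectively. COX6B2, COX7B2 and COX8C, known from testis, had at most 2 counts in any library, and NDUFA4L2, a hypoxia-induced paralog of NDUFA4, at most 3. A count of 0 allows up to 3 counts, so these levels are at or under the limit of detection in all 4 groups, and no fold change is given for them. Together with the antisense RNA NDUFV2-AS1 (2 to 8 counts) they make up the 7 members that were not tested. The paralogs that other tissues share were all detected. COX6A1 stood at 163 ± 7.54 CPM with empty vector (SD, n = 3), COX6B1 at 121 ± 2.30, COX7A2 at 186 ± 12.3, COX7A2L at 163 ± 5.54 and COX8A at 92.2 ± 5.61. UQCRHL, a near-identical copy of the hinge protein gene UQCRH, was listed at 131 ± 3.43 CPM and UQCRH at 97.7 ± 5.69. How reads were divided between such copies is not given in the sources used here, so the split between UQCRH and UQCRHL, and between ATP5L and ATP5L2, is uncertain, as is that of a read-through locus and its first gene. NDUFB2 and its antisense partner NDUFB2-AS1 both held fractional counts (over 0.01 from a whole number) in all 12 libraries, as did NDUFC2 and NDUFC2-KCTD14 in 10 and ATP5I in 11.

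No member was called in any comparison with empty vector. In the edgeR fit (threshold: adjusted p of 0.05), 0 of the 79 tested members were called with NRF1, where 1.75% of 15135 genes were called (0.238% higher and 1.51% lower). With NRF2 the count was also 0, where 10.5% of genes were called (4.68% higher and 5.81% lower). With NRF3 it was 0 where 0.0264% were called (0.0198% higher and 0.00661% lower), so that few genes of any kind were called there. At an unadjusted p under 0.05 there were 2 members with NRF1, 1 with NRF2 and 1 with NRF3, where 17.4%, 24.5% and 4.12% of all genes passed. DESeq2 called 0 members with each transgene, where it called 2.82% of genes with NRF1, 9.88% with NRF2 and 0.0529% with NRF3 (3, 2 and 0 members at an unadjusted p under 0.05). An unequal variance test on log2 CPM also called 0, but it called only 0.0198%, 0.542% and 0% of all genes (2, 3 and 1 members at an unadjusted p under 0.05). A fit by limma voom with weights for library quality called 2 members higher (NDUFS6 and SDHA) and 2 lower (NDUFA4 and NDUFB5) with NRF1, where it called 8.81% of genes higher and 10.2% lower, and 1 higher (NDUFS6) and 1 lower (ATP5G1) with NRF2, where it called 9.9% and 10.7%. It called 0 members with NRF3, where it called 0.0529% of genes (12 members, and 11.4% of all genes, at an unadjusted p under 0.05). The median log2 fold change of the members was -0.03 with NRF1, -0.06 with NRF2 and 0.06 with NRF3, and that of all genes -0.01, 0.00 and 0.00. With NRF3 the median of the members was 0.19 without replicate 2 and -0.05 without replicate 3, so its size and sign depended on 1 library. The comparisons share the 3 empty vector libraries.

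Most intervals were narrow. The 95% interval of the log2 fold change lay within a 1.5-fold difference in either direction for 75 of 79 members with NRF1, 77 with NRF2 and 78 with NRF3, and within a 2-fold difference for all 79 in each. These intervals rest on a spread shared by the 4 groups, whereas the median SD of log2 CPM over the members was 0.27 within NRF3 and 0.07 within empty vector, a difference that these intervals do not carry. Groups did not overlap for 11 members that were higher and 2 that were lower with NRF1, where 15% and 15.9% of all genes did so. With NRF2 the counts were 1 higher and 9 lower (17.8% and 17.7% of all genes), and with NRF3 they were 2 higher and 0 lower (3.95% and 4.64%). These are bulk libraries, in which fewer cells of a kind and less RNA per cell cannot be told apart.

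**Figure D2:**
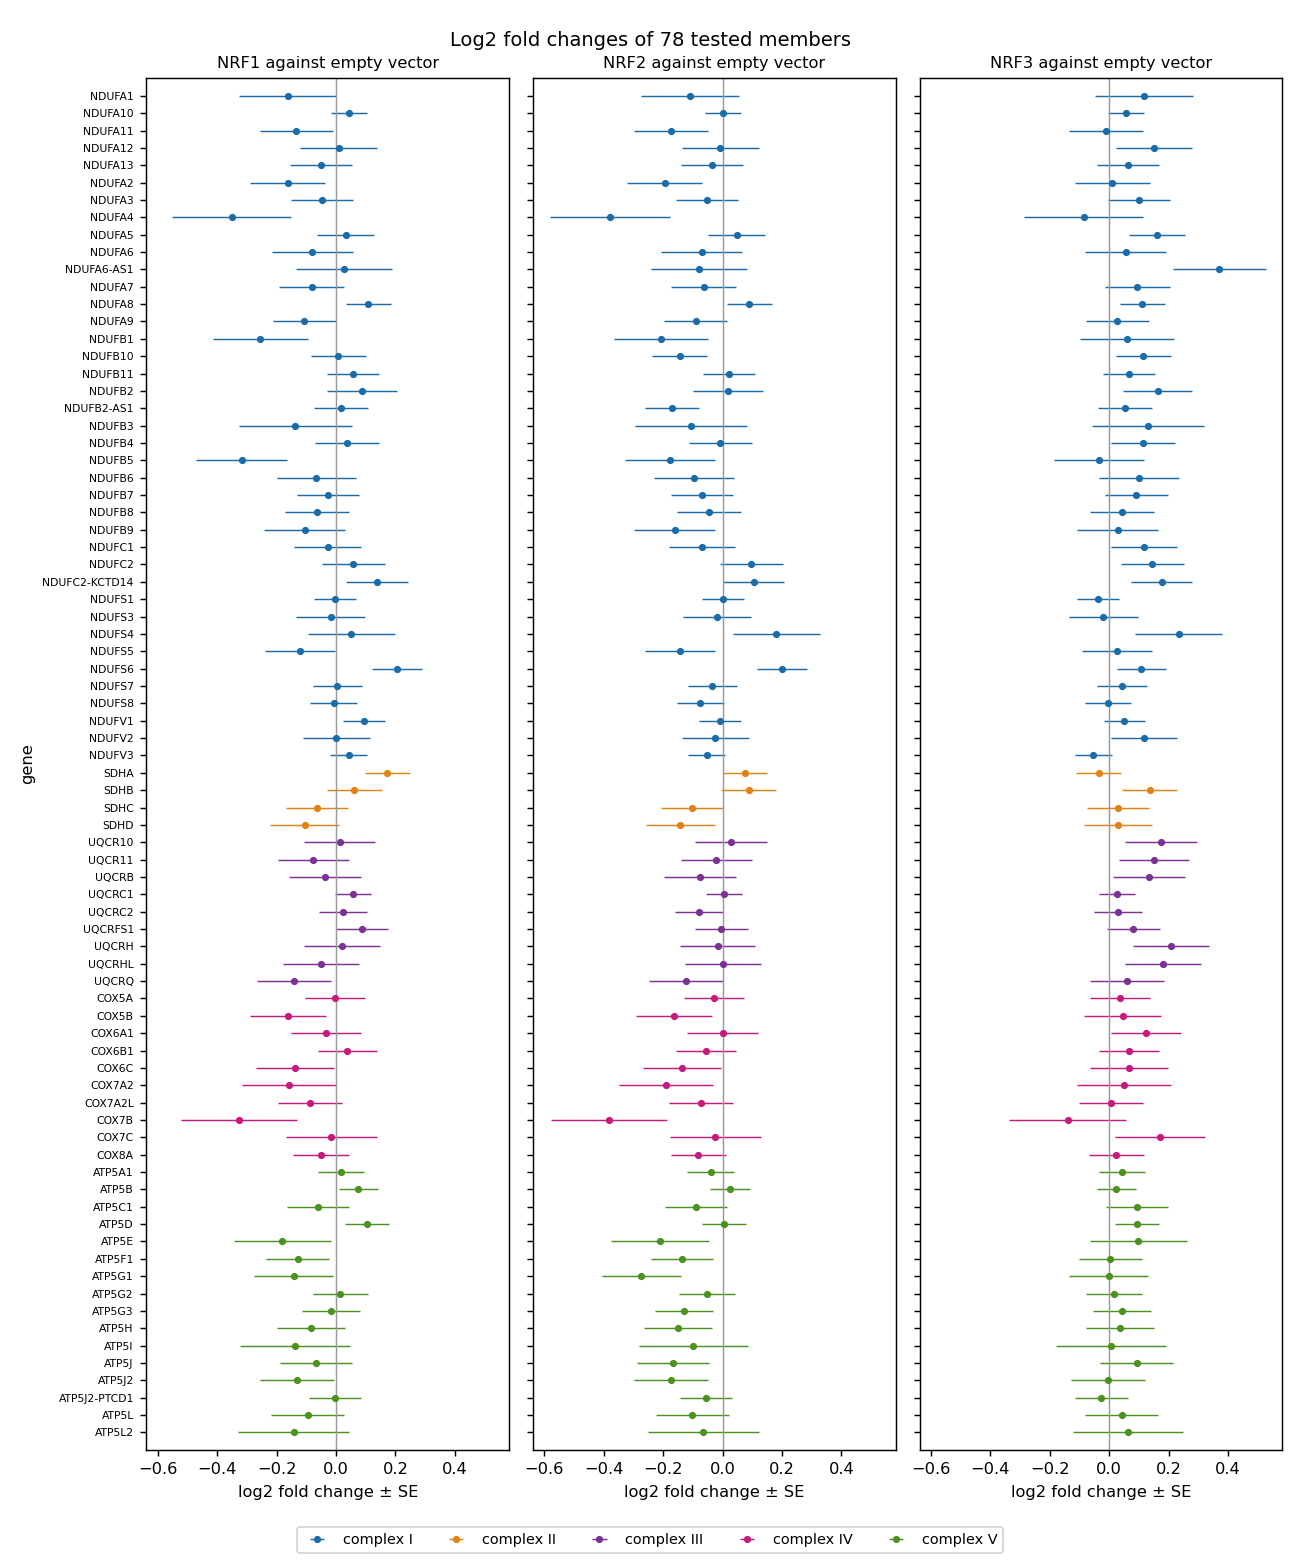
Log2 fold change (x axis) of 78 tested members (y axis) with NRF1, NRF2 and NRF3 against empty vector, 3 libraries a group, with the SE as lines and colours by complex as the symbol gives it. Estimates lie between -0.38 and 0.37, and none was called.

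Complex I was measured through 40 tested members by symbol, among them NDUFA4, the antisense RNAs NDUFA6-AS1 and NDUFB2-AS1 and the read-through locus NDUFC2-KCTD14. The median log2 fold change of all 40 was -0.01 with NRF1, -0.05 with NRF2 and 0.07 with NRF3, with 19, 10 and 33 of 40 above 0. With NRF3 it was 0.19 without replicate 2 and -0.02 without replicate 3. The core subunits that carry the flavin and the iron-sulfur clusters differed little between groups. NDUFV1, which binds NADH and the flavin, stood at 208, 209 and 216 CPM for empty vector, 219.7, 224 and 232 for NRF1, 198, 213 and 219 for NRF2, and 239, 215 and 202 for NRF3. Its log2 fold change was 0.09 ± 0.07 (SE) with NRF1, -0.01 ± 0.07 with NRF2 and 0.05 ± 0.07 with NRF3, and the lowest adjusted p was 0.520. NDUFV1 was highest in NRF3 replicate 1 and the NRF2 and NRF3 libraries overlapped those of empty vector, whereas the 3 NRF1 libraries lay above them. For NDUFV2, NDUFS1, NDUFS3, NDUFS7 and NDUFS8, further core subunits, the log2 fold changes ran from -0.08 (NDUFS8 with NRF2) to 0.12 (NDUFV2 with NRF3), each with an SE of 0.07 to 0.12.

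Against empty vector, the smallest p among complex I members belonged to NDUFS6, a zinc-binding accessory subunit of the peripheral arm, which was singled out after its values were seen. NDUFS6 stood at 86.2, 98.2 and 94.9 CPM for empty vector, 107, 109.8 and 105 for NRF1, 96.3, 112 and 112 for NRF2, and 108, 90.0 and 103 for NRF3. Its 3 NRF1 libraries lay above every empty vector library, 2 of 3 NRF2 libraries did so, and NRF2 replicate 1 lay within the empty vector range. The log2 fold change was 0.21 ± 0.08 (SE; edgeR adjusted p = 0.222) with NRF1, 0.20 ± 0.08 (SE; edgeR adjusted p = 0.148) with NRF2 and 0.11 ± 0.08 (SE; edgeR adjusted p = 0.994) with NRF3. The test of the difference between NRF2 and NRF1 gave -0.01 ± 0.08. The accessory subunit NDUFB5 of the membrane arm, also picked for its p, stood at 70.2, 77.8 and 70.0 CPM for empty vector, 69.8, 52.0 and 53.0 for NRF1, 58.9, 71.4 and 62.5 for NRF2, and 67.9, 55.1 and 90.0 for NRF3. The NDUFB5 value was under every empty vector library with NRF1, only just so in replicate 1, and the log2 fold change was -0.32 ± 0.15 (SE; edgeR adjusted p = 0.302). NDUFA6-AS1, an antisense RNA with 3.76 to 7.18 CPM, was above all other groups in each NRF3 library, at 5.74, 5.53 and 7.18 CPM, with a log2 fold change of 0.37 ± 0.16 (SE; edgeR adjusted p = 0.994) against empty vector, which was 0.25 without replicate 3. It is classed as antisense by its symbol in the deposited table, and its current symbol is NDUFA6-DT. Whether reads were counted by strand is not given in the sources used here, and overlap of NDUFA6 and NDUFA6-AS1 was not checked. Whether their reads were kept apart is therefore uncertain, though neither held a fractional count in any library.

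Complex II, whose 4 subunits are all nuclear, gave median log2 fold changes of -0.00 with NRF1, -0.01 with NRF2 and 0.03 with NRF3. Without NRF3 replicate 2 it was 0.15 for NRF3, and -0.05 without replicate 3. SDHA, the flavoprotein that oxidises succinate, stood at 182, 181 and 187 CPM for empty vector, 195, 202 and 224 for NRF1, 196, 182 and 202 for NRF2, and 187, 188 and 162 for NRF3. Each NRF1 library of SDHA was above each empty vector library, and NRF3 replicate 3 was the lowest of all 12. Its log2 fold change was 0.17 ± 0.08 (SE; edgeR adjusted p = 0.249) with NRF1, 0.08 ± 0.08 (SE; edgeR adjusted p = 0.588) with NRF2 and -0.04 ± 0.08 (SE; edgeR adjusted p = 0.994) with NRF3. SDHB, the iron-sulfur subunit, was at 239.9 ± 4.92 CPM in the control, 250.4 ± 2.05 under NRF1, 255 ± 22.2 under NRF2 and 264 ± 41.7 under NRF3 (SD, n = 3). SDHC and SDHD, the membrane anchors, had log2 fold changes of -0.06 ± 0.10 and -0.11 ± 0.12 with NRF1, -0.10 ± 0.10 and -0.14 ± 0.12 with NRF2, and 0.03 ± 0.10 and 0.03 ± 0.12 with NRF3. The promoter of SDHD printed above holds the nuclear respiratory factor 1 motif.

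Complex III had medians of 0.01 with NRF1, -0.02 with NRF2 and 0.13 with NRF3, and none of its 9 members was called. The NRF1 median was -0.09 without NRF1 replicate 1. The NRF3 median was 0.28 without replicate 2, where 9 of 9 members were above 0, and -0.01 without replicate 3, where 4 of 9 were. UQCRC1, a core protein, stood at 284, 293 and 292 CPM for empty vector, 299, 299.8 and 307 for NRF1, 284, 298 and 291 for NRF2, and 298, 279 and 308 for NRF3. The groups overlapped apart from NRF1, whose 3 libraries were above empty vector, with a log2 fold change of 0.06 ± 0.06, 0.00 ± 0.06 and 0.02 ± 0.06 with NRF1, NRF2 and NRF3. UQCRC2, the other core protein and the highest of the complex by CPM, was at 353 ± 9.42 CPM with empty vector and 360.0 ± 47.7 with NRF3 (SD, n = 3). UQCRFS1, the Rieske iron-sulfur protein, stood at 206, 215 and 200.3 CPM for empty vector, 219.9, 219 and 221 for NRF1, 197, 213 and 209 for NRF2, and 219, 184 and 254 for NRF3. The NRF3 libraries of UQCRFS1 lay on both sides of the empty vector range. UQCRH had a log2 fold change of 0.21 ± 0.13 and UQCRHL of 0.18 ± 0.13 with NRF3, both with an adjusted p of 0.994, and these were 0.33 and 0.33 without NRF3 replicate 2 and 0.04 and 0.01 without replicate 3. UQCR11, the lowest of the complex by CPM, was at 61.1 ± 3.68 CPM with empty vector and 67.8 ± 13.6 with NRF3.

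The estimates farthest below 0 were those of COX7B and NDUFA4, both proteins of complex IV. Over its 10 tested members by symbol the median log2 fold change was -0.07 with NRF1, -0.08 with NRF2 and 0.05 with NRF3, with 9 and 10 of 10 below 0 for the first 2. The NRF3 median was 0.18 without replicate 2 and -0.09 without replicate 3. By library, the median log2 deviation from the empty vector mean was 0.01, -0.10 and -0.15 in NRF1 replicates 1 to 3. It was -0.26, 0.04 and -0.09 in those of NRF2, so the lowering was not shared by all libraries. Over all fits the NRF2 median ranged from -0.13 to 0.01. COX7B, a small subunit on the surface of the complex, stood at 183, 218 and 193 CPM for empty vector, 196, 143 and 135 for NRF1, 123, 179.9 and 153 for NRF2, and 189, 128 and 223 for NRF3. All NRF2 libraries of COX7B were under all empty vector libraries, NRF1 replicate 1 was not, and the NRF3 libraries ran from below to above the empty vector range. Its log2 fold change was -0.33 ± 0.20 (SE; edgeR adjusted p = 0.421) with NRF1, -0.38 ± 0.20 (SE; edgeR adjusted p = 0.257) with NRF2 and -0.14 ± 0.20 (SE; edgeR adjusted p = 0.994) with NRF3. NDUFA4 keeps a complex I symbol but its protein is a subunit of complex IV, and it stood at 57.4, 64.7 and 55.7 CPM for empty vector, 61.8, 38.7 and 38.7 for NRF1, 41.0, 51.9 and 43.7 for NRF2, and 53.8, 41.4 and 72.4 for NRF3. The same held for NDUFA4, and its log2 fold change was -0.35 ± 0.20 (SE; edgeR adjusted p = 0.397) with NRF1, -0.38 ± 0.20 (SE; edgeR adjusted p = 0.272) with NRF2 and -0.09 ± 0.20 (SE; edgeR adjusted p = 0.994) with NRF3. In both genes NRF1 replicate 1 was at the level of empty vector and NRF1 replicates 2 and 3 were lower. COX5A, the highest of the complex by CPM, stood at 310.3, 314 and 305 CPM for empty vector, 309, 319.5 and 299 for NRF1, 267, 328 and 316 for NRF2, and 315, 266 and 373 for NRF3. It differed by at most 0.04 in log2 between a transgene and empty vector. COX5B, which binds zinc on the matrix side, had log2 fold changes of -0.16 ± 0.13, -0.16 ± 0.13 and 0.04 ± 0.13, and COX6C of -0.14 ± 0.13, -0.14 ± 0.13 and 0.07 ± 0.13, with NRF1, NRF2 and NRF3.

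Complex V had medians of -0.08 with NRF1, -0.10 with NRF2 and 0.04 with NRF3 over 16 members by symbol, of which 12, 14 and 3 were below 0. The read-through locus ATP5J2-PTCD1 is 1 of the 16. The NRF3 median was 0.16 without replicate 2 and -0.09 without replicate 3. By library, the median log2 deviation from the empty vector mean was 0.04, -0.11 and -0.14 in NRF1 replicates 1 to 3. It was -0.24, 0.01 and -0.11 in those of NRF2. Over all fits the NRF2 median ranged from -0.18 to 0.01. ATP5B stood at 1616, 1593 and 1576 CPM for empty vector, 1638, 1661 and 1741 for NRF1, 1563, 1674 and 1631 for NRF2, and 1640.5, 1513 and 1711 for NRF3. These counts were the highest of any member, and the 3 NRF1 libraries exceeded the 3 empty vector libraries by a log2 fold change of 0.08 ± 0.07 (SE; edgeR adjusted p = 0.606). ATP5A1, the alpha subunit, had log2 fold changes of 0.02 ± 0.08, -0.04 ± 0.08 and 0.04 ± 0.08, and ATP5C1, the central shaft, of -0.06 ± 0.10, -0.09 ± 0.10 and 0.09 ± 0.10. Subunit c, which forms the rotor ring, is made from ATP5G1, ATP5G2 and ATP5G3, whose mature proteins are the same. ATP5G1 stood at 156, 171 and 156 CPM for empty vector, 167, 134 and 136 for NRF1, 119, 145 and 136 for NRF2, and 164, 124 and 194 for NRF3. NRF2 libraries of ATP5G1 were all under the empty vector libraries, and the log2 fold change was -0.27 ± 0.13 (SE; edgeR adjusted p = 0.224) with NRF2, -0.14 ± 0.13 (SE; edgeR adjusted p = 0.628) with NRF1 and -0.00 ± 0.13 (SE; edgeR adjusted p = 0.999) with NRF3. ATP5G2 and ATP5G3, at 322 ± 23.2 and 281 ± 7.98 CPM with empty vector (SD, n = 3), had -0.05 ± 0.09 and -0.13 ± 0.10 with NRF2. The lowest of the complex by CPM was ATP5L2, at 8.84 ± 0.552 CPM with empty vector.

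**Figure D3:**
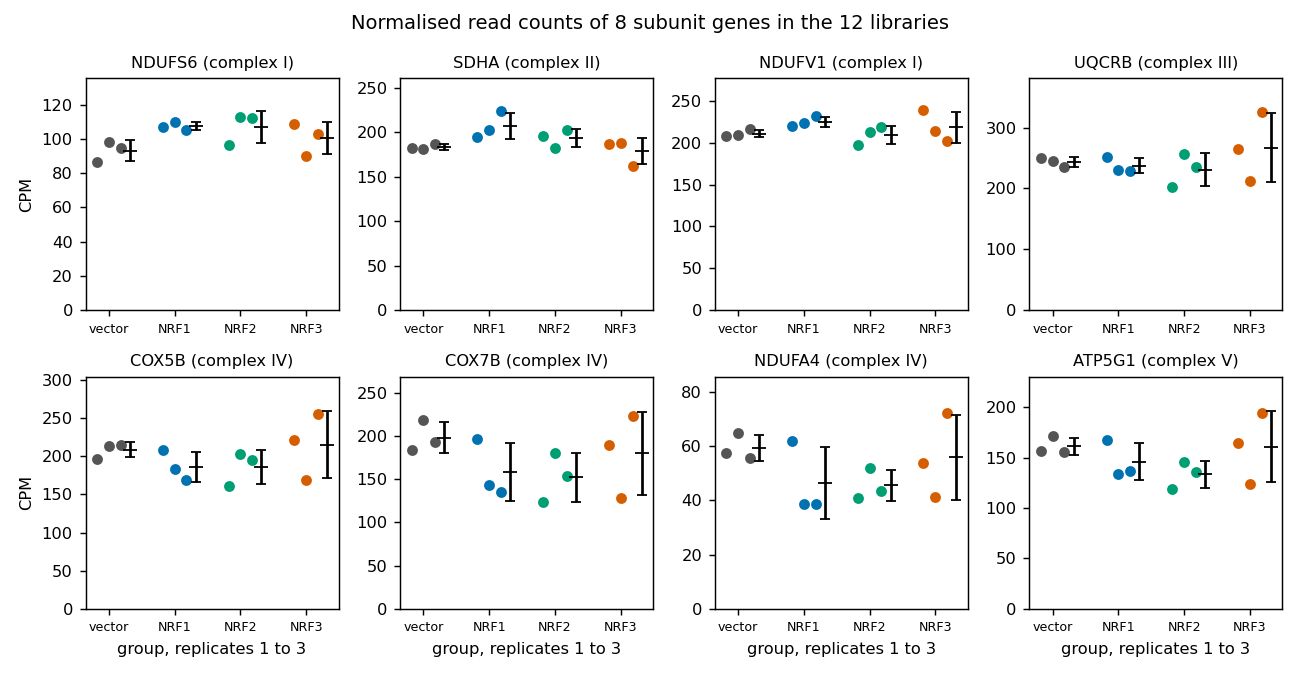
CPM (y axis from 0) of 8 subunit genes in each library, points in the order of replicates 1 to 3 and the mean with SD beside them (n = 3). COX7B, NDUFA4 and ATP5G1 are lower in all NRF2 libraries than in all empty vector libraries. Of the 8 genes, NDUFA4 and COX7B have the widest range of log2 CPM over the NRF3 libraries, while UQCRB has the largest SD in CPM there, at 56.7.

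Calls on these genes depended on the fit. When the fit held the 2 compared groups alone, NDUFS6 (adjusted p = 0.0168) and SDHA (adjusted p = 0.0325) were called higher with NRF1, where 6.44% of genes were called higher, and ATP5G1 (adjusted p = 0.00845), NDUFA4 (adjusted p = 0.00393) and NDUFA2 were called lower with NRF2, where 9.82% were called lower. With all NRF3 libraries left out, 0 members were called with NRF1, where 8.03% of genes were called (4 members at an unadjusted p under 0.05), and NDUFS6 (adjusted p = 0.0414) was called higher and ATP5G1 (adjusted p = 0.0310) lower with NRF2, where 8.64% of genes were called higher and 9.92% lower. Without NRF3 replicate 2, ATP5G1 was the 1 member called lower with NRF2 (adjusted p = 0.0492, 7.9% of genes lower). Without NRF3 replicates 2 and 3, NDUFS6 (8.56% of genes higher) and ATP5G1 (9.21% lower) were again called with NRF2. A covariate from the cytosolic ribosomal protein genes, added after the data were seen, gave NDUFS6 higher (4.86% of genes) and COX7B, NDUFA4 and NDUFB5 lower (6.03%) with NRF1, and 4 members higher (NDUFS6, NDUFS4, NDUFC2 and SDHB, 9.78%) and 2 lower (ATP5G1 and COX7B, 10.9%) with NRF2. The calls of NDUFS6 and ATP5G1 thus came and went with the fit. These fits reuse the same libraries of the compared groups, so a shared sign of the estimates is no separate evidence.

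The direct comparisons ask whether the transgenes differed from each other. In the fit of all libraries 0 of 79 members were called for NRF2 against NRF1, where 1.25% of genes were called (1.04% higher and 0.205% lower), for NRF3 against NRF1, where 0.396% were called (0.35% higher and 0.0463% lower), and for NRF3 against NRF2, where 5.17% were called (2.75% higher and 2.42% lower). At an unadjusted p under 0.05 the counts were 0, 2 and 3 (10.7%, 11.7% and 20.5% of all genes), and by DESeq2 0 were called, where it called 1.5%, 0.859% and 5.55% of genes, with 0, 1 and 4 members at that level. The median log2 difference of the members was -0.03, 0.13 and 0.14, with 23, 67 and 74 of 79 above 0. Over all fits that were run, these medians ranged from -0.09 to 0.04, from -0.01 to 0.26 and from -0.02 to 0.29, in the same order. Their sign was thus not the same in every fit. Groups did not overlap for 0 members higher and 6 lower between NRF2 and NRF1 (10% and 8.81% of all genes), 1 higher and 2 lower between NRF3 and NRF1 (7.36% and 5.34%), and 2 higher and 0 lower between NRF3 and NRF2 (10.1% and 9.74%). SDHA was lower with NRF3 than with NRF1 in every library, with a log2 difference of -0.21 ± 0.08 (SE; edgeR adjusted p = 0.308). NDUFB10, a membrane arm subunit and the highest member of complex I by CPM, stood at 276, 296 and 279 CPM for empty vector, 307, 286 and 263 for NRF1, 228, 272 and 269.6 for NRF2, and 309, 268 and 344 for NRF3. Its log2 difference between NRF3 and NRF2 was 0.26 ± 0.09 (SE; edgeR adjusted p = 0.121), and it was the 1 member called higher there with no filter on low counts (2.18% of genes higher), by limma voom (6.92%) and with an offset for coding length (4.12%).

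The counts in the 2 comparisons of NRF3 with another transgene turned on NRF3 replicate 2. Without it, 14 members were higher with NRF3 than with NRF1, where 4.18% of genes were higher, and 40 were higher than with NRF2, where 9.76% were higher, and 0 were lower in either. By symbol, the 40 included 19 of 40 members of complex I, 1 of 4 of complex II and 6 of 9 of complex III. The others were 5 of 10 of complex IV and 9 of 16 of complex V. The antisense RNAs NDUFA6-AS1 and NDUFB2-AS1 are among the 19. All of the 14 were among the 40. The median log2 difference of the members was then 0.26 and 0.29. COX7A2, for example, gave 0.40 against NRF1 (edgeR adjusted p = 0.0279) and 0.44 against NRF2 (adjusted p = 0.00799), and COX5B gave 0.36 (adjusted p = 0.0343) and 0.36 (adjusted p = 0.0165). Against empty vector, 0 members were called without that library, where 0.0326% of genes were called higher and 0.00652% lower. There 37 members were higher at an unadjusted p under 0.05, as were 7.29% of all genes, and the median log2 fold change was 0.19. Without NRF3 replicate 3, 0 members were called in each comparison of NRF3, where 0.0392% of genes were called against empty vector, 0.366% against NRF1 and 4.95% against NRF2 (1, 1 and 1 members at an unadjusted p under 0.05). With both left out, NRF3 had 1 library, whose spread is assumed to be that of the other groups, and 2 members (ATP5G2 and COX8A) were higher than with NRF2, where 4.66% of genes were higher, and 0 were called against NRF1 (1.09% of genes) or empty vector (0.0445%).

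The members moved together from library to library. Expressed as the median log2 deviation from the mean of empty vector, the members stood at -0.02, 0.06 and -0.03 for empty vector, 0.05, -0.07 and -0.10 for NRF1, -0.21, 0.03 and -0.04 for NRF2, and 0.08, -0.21 and 0.28 for NRF3. Replicates 2 and 3 of NRF3 held the lowest and the highest of the 12 values. The order of NRF3 libraries was replicate 2, 1, 3 from low to high in 68 of 79 members, against 25.9% of all genes tested. NRF3 replicate 3 was the highest of the 12 libraries for 67 members, and the lowest was NRF3 replicate 2 for 40 and NRF2 replicate 1 for 26. The median of all genes tested lay within 0.01 of 0 in every library.

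Each complex showed this pattern. For complex I the summed counts were 4522, 4830.2 and 4545 CPM for empty vector, 4789.9, 4475 and 4428 for NRF1, 4096, 4783 and 4552 for NRF2, and 4977, 4068 and 5497 for NRF3. For complex IV they were 1565, 1667 and 1579.7 CPM for empty vector, 1620.5, 1469 and 1414 for NRF1, 1309, 1621 and 1511 for NRF2, and 1675, 1291 and 1968 for NRF3. The ratio of NRF3 replicate 3 to replicate 2 was 1.35 for complex I, 1.26 for complex II, 1.37 for complex III, 1.52 for complex IV and 1.30 for complex V. As a group mean, the sum over all tested members was 13410.1 ± 331 CPM in the control, 13239.5 ± 497 under NRF1, 12899.5 ± 944 under NRF2 and 13910.5 ± 2057 under NRF3 (SD, n = 3). The groups overlapped. The median SD of log2 CPM within NRF3 was 0.27 over the members and 0.19 over all genes, and within empty vector it was 0.07 and 0.09.

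**Figure D4:**
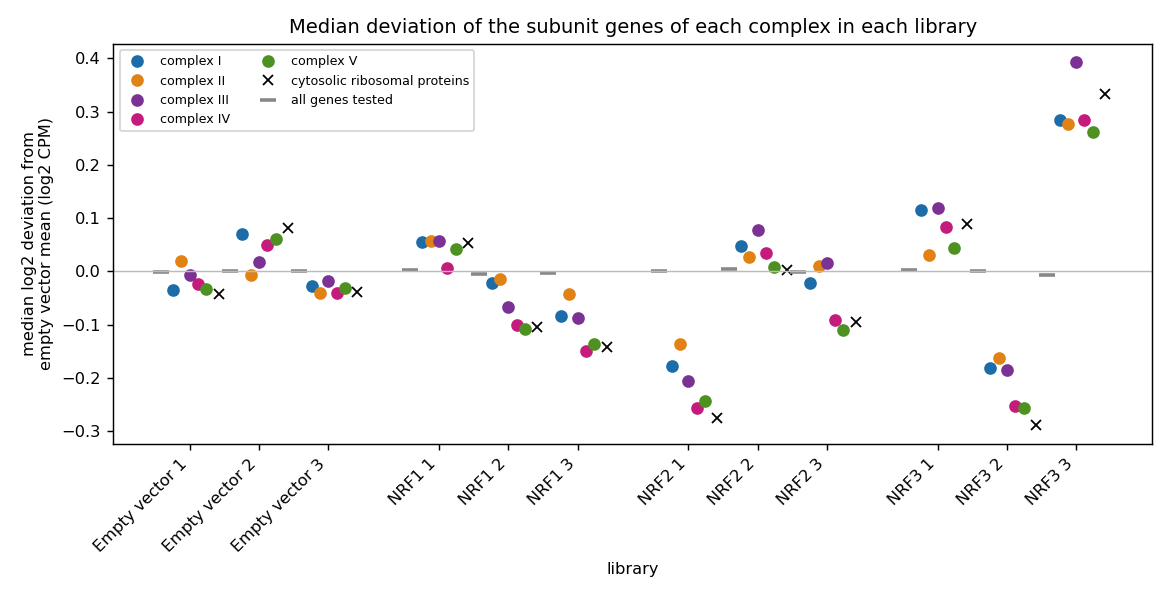
Median log2 deviation from the empty vector mean (y axis) of the tested members of each complex in each of the 12 libraries (x axis), with cytosolic ribosomal protein genes as crosses and all genes tested as dashes. The complexes lie together within each library, from 0.26 to 0.39 in NRF3 replicate 3 and from -0.26 to -0.16 in NRF3 replicate 2.

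The members with the widest range over the NRF3 libraries were NDUFB3, ATP5I, NDUFA4, COX7A2 and COX7B. NDUFB3, an accessory subunit of the complex I membrane arm, stood at 76.8, 81.3 and 75.0 CPM for empty vector, 83.2, 66.8 and 62.0 for NRF1, 62.7, 84.0 and 69.8 for NRF2, and 78.3, 61.0 and 116 for NRF3. ATP5I, subunit e of ATP synthase, stood at 96.0, 107 and 111 CPM for empty vector, 110.2, 87.9 and 87.1 for NRF1, 82.5, 115 and 95.8 for NRF2, and 107, 72.7 and 135 for NRF3. COX7A2 stood at 179, 200.3 and 179 CPM for empty vector, 187, 155 and 158 for NRF1, 144, 183 and 162 for NRF2, and 202, 137 and 239 for NRF3. In all 3 genes NRF3 replicate 3 was the highest library of the 12. NRF3 replicate 3 minus replicate 2 was 0.93 in log2 CPM for NDUFB3, 0.89 for ATP5I, 0.81 for NDUFA4 and 0.80 for COX7A2 and COX7B. It was above 0 for 76 of 79 members, with a median of 0.52, and the exceptions were SDHA at -0.22, NDUFV1 at -0.09 and ATP5D, the delta subunit of the central stalk, at -0.05.

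The size of this difference went with coding length. The members are short, with a median coding length of 387 nt against 1425 nt over all genes tested. Across genes, Spearman's rho between coding length and the difference of the NRF3 libraries was -0.54 over 77 members and -0.53 over 12961 genes, as a description, since genes of the same libraries are not independent. In NRF3 replicate 3 the median deviation of all genes ran from 0.26 for coding lengths up to 300 nt to -0.38 over 5000 nt, and in replicate 2 it ran from -0.20 to 0.20. Members up to 300 nt had 0.36 and -0.27, while the 3 members of 1501 to 2000 nt had 0.10 and -0.08. All genes of 1501 to 2000 nt had -0.04 and 0.03, with the signs reversed. In each bin of length that held members, their median was above that of all genes in NRF3 replicate 3 and below it in replicate 2. What set the members apart from other genes of like length was not tested. The libraries NRF2 replicate 1 (-0.22 up to 300 nt, 0.18 over 5000 nt) and NRF3 replicate 2 leaned the same way. The 83 tested cytosolic ribosomal protein genes, which are also short, stood at 0.33 in NRF3 replicate 3, -0.29 in replicate 2 and 0.09 in replicate 1, and the 77 mitochondrial ribosomal protein genes at 0.28, -0.15 and 0.08. None of either list was called in any of the 6 comparisons. When the trend with coding length was taken out of each library, 0 members were called with NRF1 or NRF3 against empty vector, where 3.06% and 0.0386% of genes were called, and NDUFS6 was higher and ATP5G1 lower with NRF2 (6.58% and 7.26% of genes). The step of the experiment at which the libraries came to differ was not tested.

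**Figure D5:**
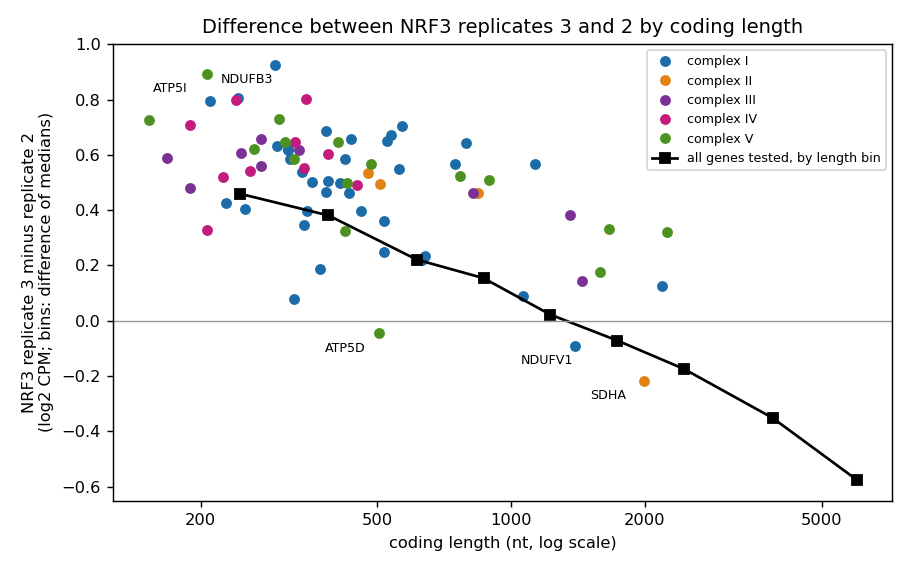
NRF3 replicate 3 minus NRF3 replicate 2 in log2 CPM (y axis) against coding length in nt (x axis, log scale) for 76 members, coloured by complex, with the difference of the medians of all genes in bins of length as squares, the outer bins drawn at set lengths. Short members reach 0.93, and SDHA lies at -0.22.

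No gene was called in the lists of nuclear genes closest to the subunits. Of the 9 subunit genes that the symbol rule leaves out, among them COX4I1 and CYC1 (cytochrome c1), 8 were tested and 0 were called in any of the 6 comparisons, with medians of -0.05, -0.08 and 0.06 with NRF1, NRF2 and NRF3 (edgeR, with 0, 1 and 0 at an unadjusted p under 0.05). Of 46 assembly factors, which help to build the complexes, 45 were tested and 0 were called, with medians of -0.04, -0.07 and 0.06 (3, 2 and 0 at that level). Of the 11 regulators of this pathway, among them nuclear respiratory factor 1, GABPA, PPARGC1A and TFAM, 0 were called (3, 4 and 0 at that level), with medians of 0.06, 0.05 and 0.02 and a lowest adjusted p of 0.0502 with NRF2. The subunit mRNAs of the mitochondrial genome differed from this: 12 of 13 were lower with NRF1 (median log2 fold change -0.78, where 1.51% of genes were called lower) and 12 with NRF2 (median -0.82, 5.81%), and 0 with NRF3 (median -0.00). The NRF3 libraries did not follow the order of the nuclear members there, with medians of 0.25, -0.09 and -0.17 in replicates 1, 2 and 3.

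Medians of the members with and without a motif in the promoter lay close together. The 12 genes with the antioxidant response element core had median log2 fold changes of -0.05 with NRF1, -0.03 with NRF2 and 0.08 with NRF3, and the 49 tested genes with a promoter but without it -0.03, -0.07 and 0.06. The NRF3 medians of these groups were 0.20 and 0.19 without replicate 2 and -0.02 and -0.05 without replicate 3. NDUFS6, with the smallest p against empty vector, and ATP5I, with -0.10 ± 0.18 with NRF2, are both among the 12. The 4 genes with the nuclear respiratory factor 1 motif ran from -0.11 to 0.11 with NRF1, from -0.14 to 0.09 with NRF2 and from 0.03 to 0.11 with NRF3, which became 0.16 to 0.26 without replicate 2 and -0.11 to 0.07 without replicate 3. The 19 genes with the ETS motif had medians of -0.05, -0.07 and 0.06, against -0.01, -0.05 and 0.06 for the 42 without it, and with NRF3 0.20 and 0.19 without replicate 2 and -0.08 and -0.04 without replicate 3.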

How the data were processed

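RNA sequencing libraries of HEK293T cells, 3 for each of empty vector, FLAG-NRF1, FLAG-NRF2 and FLAG-NRF3, were sequenced at BGI. The deposited table holds estimated counts per gene that the authors made with the DNASTAR Lasergene suite on GRCh37.p13 (the build per the labels), with 0.009 for no count (45.9% of values). How the suite counted reads, and which version was run, is not given in the sources used here. Short genes, near-identical copies and overlapping genes can be affected by such rules. The control columns carry the name Vehicle and were taken as empty vector, the only control in the labels.

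Values were rounded to whole counts. With edgeR 4.0.16 in R 4.3.3, genes were kept by filterByExpr (minimum count 10, 15135 genes), scaled by TMM, and fitted in a single quasi-likelihood model (robust) of 12 libraries. Comparisons were contrasts, two-sided, with Benjamini-Hochberg adjustment over all genes, and a gene was called at an adjusted p under 0.05. Library deviations used log2 CPM with a prior count of 2. Intervals are 95% intervals. The p-values measure the spread between libraries stated to be independent experiments. Replicate numbers did not pair libraries (18 same-number pairs, correlation of deviations -0.258 to 0.0841). Alternatives were limma 3.58.1, DESeq2 1.42.0, an unequal variance test, other scalings and filters, subsets of groups, a replicate block and leaving out each library. Added after the data were seen were a fit without NRF3 replicates 2 and 3, an offset for coding length and a covariate from ribosomal protein genes. The model was also run on simulated counts, drawn independently with the same spread per gene in every group. The wider spread of NRF3 and shifts shared by the genes of a library were not simulated. Figures were drawn with matplotlib 3.10.9.

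The members and lists were chosen with earlier results of these data known. Genes named are core subunits, isoforms, the 5 members with the widest range over NRF3 libraries and the highest and lowest of each complex, plus those said to be picked for their p. The values of 1 member are not reported here, though it is part of all counts and medians. Coding lengths are from GENCODE v29 and promoters from RefSeq, neither on the build of the counts, so no coordinates of counted genes are given.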

Additional observations from a re-analysis of the deposited data

How the results depend on the processing

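Most fits called 0 members, and the calls that were made depended on the fit. Over 24 alternatives, of which 12 left out 1 library, and 6 comparisons, 124 of 141 fits called 0 members. Those fits called from 0% to 14% of all genes. In all 23 fits of NRF3 against empty vector 0 members were called, where only 0% to 0.106% of genes were called. In NRF1 against empty vector, 2 members were higher with only the compared groups, 2 higher and 2 lower by limma voom, and 1 higher and 3 lower with the ribosomal protein covariate. In NRF2 against empty vector, 3 were lower with only the compared groups, 1 higher and 1 lower with NRF3 libraries left out, by limma voom, with NRF3 replicates 2 and 3 left out together and with the offset from coding length, and 4 higher and 2 lower with the ribosomal protein covariate. In NRF2 against NRF1 this covariate called 1 higher. In NRF3 against NRF2, 1 was higher with no filter on low counts, by limma voom and with the offset, and 2 with NRF3 replicates 2 and 3 left out together. Leaving out each library in turn gave 0 to 14 higher in NRF3 against NRF1, 0 to 40 higher in NRF3 against NRF2 and 0 to 1 lower in NRF2 against empty vector, and the highest values all came without NRF3 replicate 2. All other counts without a library were 0. With the replicate number as a block, which the pairing check did not call for, 0 members were called in each of the 6 comparisons. That fit called 1.04%, 7.75% and 0.0198% of genes for NRF1, NRF2 and NRF3 against empty vector. At an unadjusted p under 0.05 there were 1, 1 and 1 members, where 15%, 22.2% and 3.28% of genes passed. It called 1.01% of genes for NRF2 against NRF1, 0.0463% for NRF3 against NRF1 and 3.69% for NRF3 against NRF2. The cause of these differences was not tested. Median log2 fold changes of the members ranged over all settings from -0.09 to 0.02 with NRF1, from -0.11 to 0.02 with NRF2 and from -0.05 to 0.19 with NRF3, so that their sign was not the same under every setting.
With 3 libraries a group and a median SE of 0.11, differences under 1.5-fold may have been missed for single members. Larger ones may have been missed for members with a wider SE, such as COX7B and NDUFA4, and with NRF3, where few genes of any kind were called.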
